A study of Mus musculus with 12 samples.

Results

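A set of 8 genes that mark dendritic cells was examined in RNA of Siglec F+ alveolar macrophages, the resident phagocytes of the air spaces, before and after partial removal of the liver. The genes, 8 of the 19505 measured, were Cd209a, Flt3, Zbtb46, Xcr1, Ccr7, Fscn1, Itgae and Batf3, chosen by name, and each had exactly 1 probe set. The cells came from lungs of male C57 Black mice and were collected on magnetic beads through Siglec F, a surface lectin also found on eosinophils. The 12 samples, 3 biological replicates in each of 4 groups, were each hybridised to 1 Clariom S mouse array: animals with an intact liver, the controls, and animals studied 1, 3 and 7 days after 70% of the liver was resected. The labels mention no sham operation, so the operation and the loss of liver tissue cannot be told apart. Values are log2 signals.

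Dendritic cells take up antigen in tissues and present it to T cells in lymph nodes. Conventional dendritic cells grow under the cytokine receptor FLT3 and carry the transcription factor ZBTB46. They fall into a type 1 class, which needs BATF3 and displays XCR1 and the integrin chain CD103 (Itgae), and a type 2 class, in which CD209a is found. On maturation they gain CCR7, the receptor that leads them to lymph nodes, and fascin (Fscn1), an actin-bundling protein. In the lung they lie in the airway wall and interstitium, beside the alveolar macrophages.

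The cells were collected through Siglec F, and most of the dendritic cell genes lay within the range of background. The intron control probe sets, which target sequence absent from mature RNA, gave the background of each array: their median lay between 2.39 and 2.76 and their 95th percentile between 5.01 and 5.69. Of the 8 genes, 7 were below that 95th percentile on all 12 arrays. Ccr7 was above it on 10 of 12 arrays. Alveolar macrophage markers stood in contrast, with 10 of 11 above it on all arrays of each group, among them Siglecf at 8.79 ± 0.13 (log2, SD, n = 3) in intact samples. Markers of other cells were above it too. On all intact arrays these were 10 of 12 of neutrophils, 7 of 13 of epithelium, 6 of 10 of endothelium and 2 of 7 of eosinophils. The epithelial marker Sftpc was at 11.12 and the neutrophil marker Retnlg at 10.63 in intact samples. The name dendritic cell genes thus states what the genes are known to mark, and most of them stayed below the 95th percentile of background here. Their place below it differed. On the intact arrays Cd209a lay above 90.3 to 93.2% of the intron controls, Fscn1 above 80.9 to 88.5% and Flt3 above 46.5 to 60.6%. Ccr7 is also expressed by lymphocytes. In bulk RNA, fewer cells of a type and less RNA per cell cannot be told apart.

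**Figure D1:**
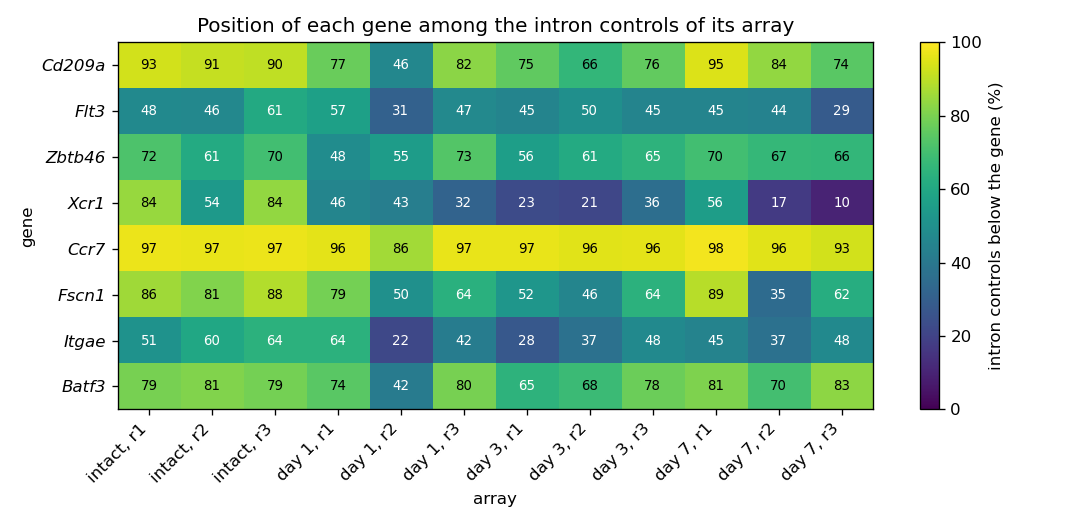
Each cell gives the percentage of intron control probe sets that lay below the gene on that array (colour scale 0 to 100%), with genes in rows and the 12 arrays in columns (r1 to r3 are replicates). Ccr7 lay between 86.0 and 98.4%, Cd209a between 90.3 and 93.2% on the intact arrays, and Flt3 between 28.6 and 60.6% on all arrays.

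Of the arrays, day 1 replicate 2, day 3 replicate 1 and day 7 replicate 2 separated exon from intron controls least (area under the curve 0.809 to 0.838, against 0.852 to 0.888 on the other 9). A labelling control, dap, was at 6.47 to 7.77 on 3 arrays (replicate 1 of day 3, replicates 2 and 3 of day 7) and at 2.13 to 2.90 on the rest. No pair of arrays held identical values.

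No dendritic cell gene passed the test in any comparison. In limma, fitted over all 22206 probe sets with Benjamini-Hochberg adjustment, 0 of 8 genes had an adjusted p under 0.05 at day 1, day 3 or day 7 against intact, where 0, 0.0045 and 0.018% of all probe sets were called. At an unadjusted p under 0.05 and lower than intact there were 3 of 8 at day 1 (Cd209a, Xcr1 and Fscn1), 3 of 8 at day 3 (the same 3 genes) and 1 of 8 at day 7 (Xcr1), against 5.9, 2.5 and 3.74% of all probe sets. On the higher side there were 0 of 8 on each day, against 3.04, 1.96 and 1.95%. Without the 3 weakly separating arrays these counts were again 3, 3 and 1, against 6.03, 4.89 and 6.34%. The genes were chosen with earlier results of these data known, so these counts are a description. All day comparisons share the 3 intact arrays.

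**Figure D2:**
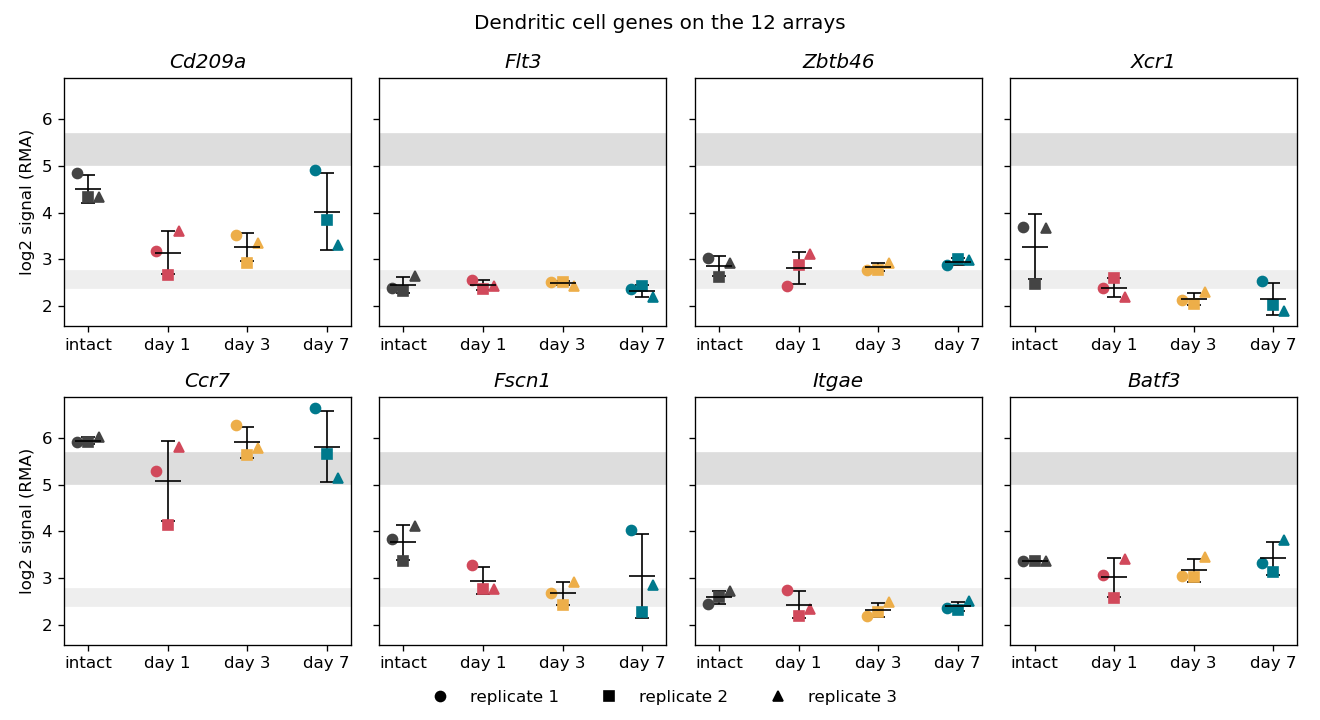
Log2 signal of each gene (vertical axis) in each group (horizontal axis), with 1 point per array, symbols for the replicate, and the mean with SD as a bar (n = 3). The dark grey band spans the 95th percentiles and the pale band the medians of the intron controls over the 12 arrays, and only Ccr7 has points above the dark band.

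Cd209a encodes a C-type lectin of the DC-SIGN family and had the lowest difference from intact of the 8 genes at day 1 and day 3, while Xcr1 had it at day 7 and with the days pooled. On the intact arrays its values were 4.86, 4.34 and 4.34. On day 1 they were 3.17, 2.67 and 3.60, and on day 3 3.52, 2.93 and 3.35. All 6 lay below all 3 intact arrays. Day 7 was spread from 4.91 on replicate 1 to 3.85 and 3.30 on the others, and overlapped intact. The day 1 difference from intact was -1.37 ± 0.36 (log2 ± SE, n = 3 per group, 2.58-fold lower), with an unadjusted p of 0.00258 and an adjusted p of 0.289 in limma. The day 3 difference was -1.24 ± 0.36 (limma adjusted p = 0.756), and that of day 7 was -0.49 ± 0.36, with a 95% interval from -1.28 to 0.30. With 1 array left out, the day 7 difference ranged from -0.94 without day 7 replicate 1 to -0.13 without day 7 replicate 3. With array weights, which count noisy arrays less, the day 3 difference of Cd209a was -1.25 with an adjusted p of 0.0335 in limma. That fit called 1.34% of all probe sets at day 3, and the adjusted p of Cd209a at day 3 ranged from 0.0335 to 1 over the alternatives.

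Xcr1 encodes the receptor for the chemokine XCL1, made by NK and CD8 T cells, and is restricted to type 1 dendritic cells. It was 3.70 and 3.66 on intact replicates 1 and 3 but 2.46 on intact replicate 2. The day 1 values were 2.39, 2.59 and 2.19, those of day 3 were 2.12, 2.05 and 2.29, and those of day 7 were 2.54, 2.02 and 1.90. Intact replicate 2 thus lay within the range of the resected arrays, and the other 2 intact arrays lay above all 9 of them. Against intact the difference was -0.89 ± 0.30 at day 1, -1.12 ± 0.30 at day 3 and -1.12 ± 0.30 at day 7, with limma adjusted p of 0.414, 0.572 and 0.395. The means after resection, 2.15 to 2.39, were at or below the intron control medians.

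Fscn1, the gene of fascin, was 3.83, 3.36 and 4.11 on the intact arrays. On day 1 it was 3.27, 2.77 and 2.77, and on day 3 2.68, 2.43 and 2.91, all below the intact arrays. Day 7 replicate 1, at 4.03, was within the intact range, while replicates 2 and 3 were at 2.27 and 2.85. The differences from intact were -0.83 ± 0.37 at day 1, -1.10 ± 0.37 at day 3 and -0.72 ± 0.37 at day 7, with limma adjusted p of 0.547, 0.933 and 0.912. The day 7 difference was -1.21 with replicate 1 of that day left out and -0.33 with replicate 2 left out.

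The promoters of these 3 genes are shown because they were the members with an unadjusted p under 0.05 at both day 1 and day 3. Each run is the 250 bases before the annotated start (RefSeq, GRCm38.p6, 5′ to 3′ on the gene's strand), with capitals for motif matches: chr8:3748985-3749234, minus strand, for Cd209a, chr9:123862030-123862279, minus strand, for Xcr1 and chr5:142960105-142960354, plus strand, for Fscn1.
Cd209a: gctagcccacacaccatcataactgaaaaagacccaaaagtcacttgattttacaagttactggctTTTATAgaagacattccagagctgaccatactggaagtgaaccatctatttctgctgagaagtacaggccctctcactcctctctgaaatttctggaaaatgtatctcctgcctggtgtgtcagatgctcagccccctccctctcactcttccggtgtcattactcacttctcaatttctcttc
Xcr1: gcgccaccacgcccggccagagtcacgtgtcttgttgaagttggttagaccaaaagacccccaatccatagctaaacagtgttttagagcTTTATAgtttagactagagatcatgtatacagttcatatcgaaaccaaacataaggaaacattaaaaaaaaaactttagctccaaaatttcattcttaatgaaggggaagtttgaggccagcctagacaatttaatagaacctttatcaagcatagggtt
Fscn1: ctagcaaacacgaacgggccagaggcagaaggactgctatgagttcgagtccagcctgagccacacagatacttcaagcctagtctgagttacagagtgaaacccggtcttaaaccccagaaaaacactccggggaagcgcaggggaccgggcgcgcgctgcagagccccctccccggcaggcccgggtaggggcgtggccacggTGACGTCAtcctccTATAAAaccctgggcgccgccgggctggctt
The motifs searched on both strands, none of them placed over another here, were the TATA box (TATAAA), the cyclic AMP response element (TGACGTCA), the AP-1 site (TGANTCA), the ETS core bound by PU.1 (GAGGAA) and the interferon regulatory factor site. Of all 32851 promoters of this length, 12.4, 1.55, 6.75, 23.3 and 2.98% held them. Fscn1 held the cyclic AMP response element from 45 to 38 bases before its start and a TATA box from 31 to 26 bases before it. Cd209a and Xcr1 each held TATAAA on the opposite strand, from 184 to 179 and from 160 to 155 bases before the start. Promoters were at hand for 6 of the 8 genes, and among the other 3 Zbtb46 held an AP-1 match, Batf3 an ETS core match and Flt3 none of the 5. A match here is a run of letters and not a binding site shown by these data.

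Ccr7 was the only member above the 95th percentile of the intron controls on any array. It was above it on 10 of 12 arrays, all but day 1 replicate 2 and day 7 replicate 3. Its protein guides mature dendritic cells, and also T and B cells, towards CCL19 and CCL21 in lymph nodes. The intact arrays were close together, at 5.90, 5.91 and 6.02. Day 1 values were 5.29, 4.14 and 5.80, all below intact, with replicate 2 lowest. Day 3 values were 6.29, 5.64 and 5.78, and day 7 values were 6.63, 5.65 and 5.14, so that both groups overlapped intact. The day 1 difference was -0.87 ± 0.41 (95% interval -1.76 to 0.03, limma adjusted p = 0.567), and without day 1 replicate 2 it was -0.40. At day 3 the difference was -0.04 ± 0.41 and at day 7 it was -0.14 ± 0.41, with intervals from -0.93 to 0.85 and from -1.03 to 0.76.

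The remaining 4 genes, the growth factor receptor Flt3, the transcription factors Zbtb46 and Batf3 and the integrin chain Itgae, differed little from intact in their group means. Over the 12 arrays Batf3 ranged from 2.57 to 3.82. Flt3, which binds FLT3 ligand on dendritic cell precursors, had group means from 2.33 to 2.49, near the intron control medians. Its range over all 12 arrays was 2.19 to 2.64. Zbtb46, a factor of conventional dendritic cells that endothelium also uses, had group means from 2.81 to 2.95 and overlapped between all groups. Itgae, which pairs with beta 7 integrin (Itgb7) and binds E-cadherin (Cdh1), had a mean of 2.59 ± 0.14 in intact samples and of 2.32 to 2.43 after resection. Batf3, a partner of JUN proteins on DNA, was nearly constant on the intact arrays, at 3.36 to 3.37. Its day 1 values were 3.06, 2.57 and 3.40 and its day 7 values 3.32, 3.14 and 3.82, so that they overlapped intact. For these 4 genes the differences from intact ran from -0.35 (Batf3, day 1) to 0.09 (Zbtb46, day 7), and every one of their 95% intervals included 0. The interval of Batf3 at day 1 reached from -0.86 to 0.16.

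**Figure D3:**
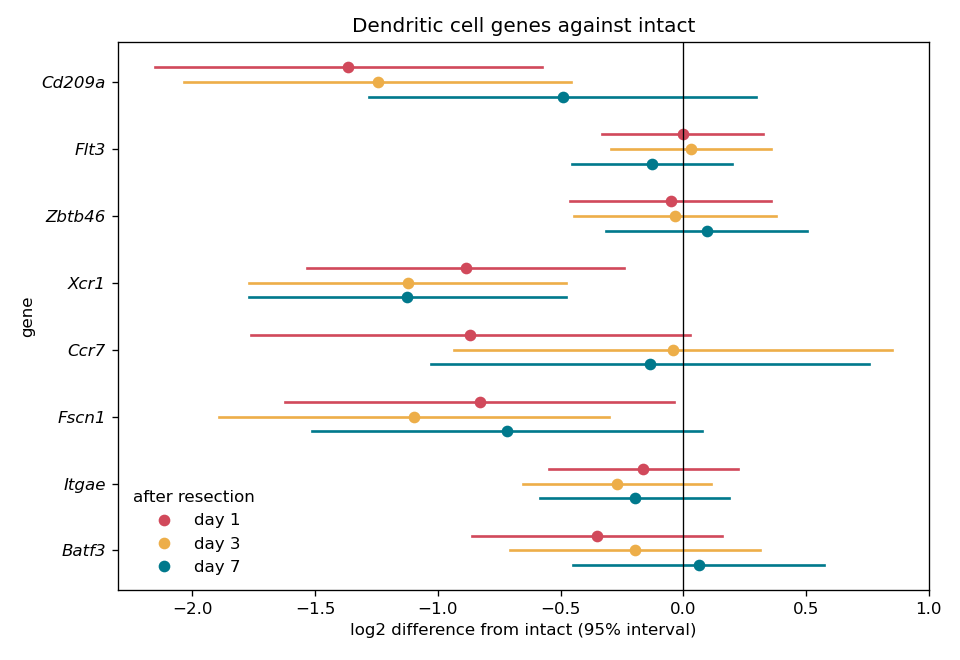
Log2 difference from intact (horizontal axis, points) with the 95% interval of the limma fit (lines) for each gene at day 1, day 3 and day 7. Cd209a at day 1 and day 3, Fscn1 at day 1 and day 3 and Xcr1 on all 3 days have intervals that leave out 0 before adjustment for 22206 tests, and none passed after it.

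At day 1 all 8 genes had a lower mean than intact, 7 of 8 after median centring, which put Flt3 at 0.03. At day 3 there were 7 of 8 and at day 7 6 of 8, while 51.5, 49.7 and 51.7% of all probe sets were lower. The median difference of the 8 genes was -0.59 at day 1, -0.23 at day 3 and -0.17 at day 7, beside -0.02, 0.00071 and -0.01 over all genes. The day 1 median was -0.27 with replicate 2 of day 1 left out, and the day 7 median was -0.36 with replicate 1 of day 7 left out. On day 1 and on day 3, 3 of the 8 genes did not overlap intact on the lower side, namely Cd209a, Ccr7 and Fscn1 at day 1 and Cd209a, Xcr1 and Fscn1 at day 3. The background was 8.94% at day 1 and 6.68% at day 3, and at day 7 the count was 0 of 8 beside 8.15%. On the higher side 0 of 8 genes were free of overlap on each day, beside 7.42, 7.19 and 6.11%.

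Between the days after resection 0 of 8 genes passed, and 0% of all probe sets were called in each of the 3 comparisons. The day 7 mean of Cd209a, 4.02, was 0.87 ± 0.36 above that of day 1 (unadjusted p = 0.0324, adjusted p = 0.738 in limma), and 0.43 above it without day 7 replicate 1. That made 1 of 8 genes higher at day 7 than at day 1 at an unadjusted p under 0.05, where 3.81% of all probe sets were, and 0 of 8 lower, where 2.93% were. For day 3 against day 1 there were 0 of 8 lower and 0 of 8 higher at that p (3.28 and 6.32% of all probe sets), and for day 7 against day 3 likewise 0 and 0 (3.1 and 2.03%). Cd209a at day 7 was 0.75 ± 0.36 above day 3 (limma adjusted p = 0.993), and 0.31 above it without day 7 replicate 1. Ccr7 differed by 0.82 ± 0.41 between day 3 and day 1 (limma adjusted p = 0.554, the smallest of a member between days). Without day 1 replicate 2 that difference was 0.36, and without the 3 weakly separating arrays 0.17. Flt3 was the 1 gene that did not overlap between day 7 and day 3, at a difference of -0.16 ± 0.15, where 5.69% of all probe sets were lower in this way and 0 of 8 genes, beside 4.84%, higher. Without overlap there were 0 of 8 genes lower and 0 higher for day 3 against day 1 (6.24 and 7.03% of all probe sets) and for day 7 against day 1 (4.66 and 4.55%). In each of the 3 comparisons 3 of 8 genes had the lower mean on the later day. Of all probe sets 49% did for day 3 against day 1, 52.1% for day 7 against day 3 and 49.7% for day 7 against day 1. The median difference of the 8 genes was 0.03 for day 3 against day 1, 0.10 for day 7 against day 3 and 0.13 for day 7 against day 1. With 1 array left out these medians ranged from -0.09 to 0.10, from -0.0107 to 0.165 and from 0.0849 to 0.31, so that the sign of the former pair depended on single arrays: the first was below 0 without day 1 replicate 2 or day 3 replicate 3, the second without day 7 replicate 1.

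With the 3 days pooled against intact, Xcr1 differed by -1.04 ± 0.24 (unadjusted p = 0.000958, adjusted p = 0.222 in limma). Cd209a differed by -1.03 ± 0.30 (adjusted p = 0.416 in limma) and Fscn1 by -0.88 ± 0.30 (adjusted p = 0.58 in limma). These 3 of 8 genes were lower at an unadjusted p under 0.05, against 4.24% of all probe sets, 0 of 8 were higher, against 1.27%, and 0 of 8 passed against 0.045% called. With array weights, Cd209a (-1.05, adjusted p = 0.017 in limma) and Xcr1 (-0.99, adjusted p = 0.0345 in limma) passed. That fit called 2.59% of all probe sets. Over all alternatives the pooled adjusted p ranged from 0.017 to 1 for Cd209a and from 0.0345 to 1 for Xcr1. In the F test over the 4 groups 0 of 8 genes passed, where 0.00901% of probe sets were called, with the smallest adjusted p, 0.446, at Xcr1. At an unadjusted p under 0.05 there were 2 of 8 in that test (Cd209a and Xcr1), against 7.34%. Pooled, 7 of 8 genes had the lower mean, beside 49.9% of all probe sets, and 0 of 8 were free of overlap on the lower or the higher side, beside 0.919 and 0.518%.

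The members varied together only in part. Over the 12 arrays Pearson's r was 0.79 between Xcr1 and Fscn1, 0.75 between Cd209a and Fscn1 and 0.72 between Cd209a and Ccr7. Flt3 and Zbtb46 were weakly correlated with all other members, the r farthest from 0 being -0.41, between Zbtb46 and Itgae. For the mean of the 8 genes, the most alike among 5126 genes of mean log2 5 or above were Tnfaip3 and Zfp36, which restrain inflammatory signalling, Myc, Arsb, H2-Eb1 and Dnajb1, with r from 0.88 to 0.91. The genes most like Ccr7 were Ep300, Cdh1 and Ascc2, at 0.94 to 0.95. Myc was among the 3 most alike for Cd209a (with Tmsb10 and Nr4a1, r 0.89 to 0.91) and for Fscn1 (with Cox6b2 and Dnajb1, r 0.82 to 0.88). For Xcr1 they were Fyn, Scgb1a1 and Zfp609 (0.75 to 0.81) and for Batf3 Nfkb2, Apaf1 and Akna (0.89). For Itgae they were Gnas, Kdm5c and Acaa1a (0.85 to 0.90), for Flt3 D16Ertd472e, Emb and Xdh (0.82 to 0.83), and for Zbtb46 Dapp1, Axin1 and Txnip (0.70 to 0.80). All arrays share 1 normalization and the same 4 groups, and these values are a description.

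Other genes of the same cells were taken from lists. Of the further type 1 genes 7 of 12 were lower at day 1, 6 at day 3 and 7 at day 7, with medians of -0.27, -0.01 and -0.12. Clec9a, a receptor for dead cells, was 3.10 in intact samples and differed by -0.74 ± 0.24 at day 1, and Irf8, which the lineage requires, by -1.02 ± 0.44. Cadm1, an adhesion protein, differed by -0.79 ± 0.28 at day 7. Clec9a and Cadm1 were above the background limit, the 95th percentile of the intron controls, on no array, and Irf8 was on 2. Ppt1, above it on all 12 arrays, was higher on days 1, 3 and 7, by 0.23, 0.32 and 0.30 (SE 0.26 each). Cd24a, above it on 11, differed by -1.07, 0.55 and 0.51 (SE 0.53 each). The SD of Irf8 was 1.21 at day 1 and 0.34 in intact samples. Of the type 2 genes 11, 7 and 6 of 13 were lower (medians -0.16, -0.17 and 0.0058). Irf4, a factor of this class, stayed between 2.69 and 3.18 in its group means, and Cd7 differed by -0.67 ± 0.17 at day 1. Sirpa and Itgam, also known from macrophages, were above the background limit on all 12 arrays, while Clec4a4, Mgl2, Irf4 and Cd7 were above it on none.

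Genes of dendritic cell maturation, to which Ccr7 and Fscn1 belong, were lower in 13, 10 and 9 of 17 cases, with medians of -0.43, -0.10 and -0.07. The costimulatory receptor gene Cd40 differed by -1.28 ± 0.32 at day 1, Cd83 by -0.85 ± 0.27 and the chemokine gene Ccl22 by -2.08 ± 0.86. Ccl22 had a mean of 7.59 in intact samples, 5.51 at day 1, 5.33 at day 3 and 7.11 at day 7. Cd80, a ligand of CD28, was 9.16 in intact samples, 8.48 at day 1 and 10.04 at day 7. These days differed from intact by -0.68 ± 0.28 and 0.88 ± 0.28. Cd40 was above the background limit on no array, Ccl22 on 9, and Cd83 and Cd80 on all 12. Macrophages express several of the maturation genes as well. Of the plasmacytoid genes 9, 7 and 9 of 11 were lower (medians -0.16, -0.16 and -0.20), with Tcf4, a factor of that lineage, at -0.97 ± 0.32 at day 1 and Bst2 at -0.93 ± 0.28. Tcf4 was above the background limit on all 12 arrays, Bst2 on 1 and the defining marker Siglech on none.

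The partners of the members, ligands, co-receptors and binding factors, were lower in 13, 14 and 12 of 15 cases (medians -0.44, -0.34 and -0.27). Ccl21a, a ligand of CCR7, had a mean of 5.35 in intact samples and of 3.52, 4.03 and 4.21 on days 1, 3 and 7, and its day 1 difference was -1.84 ± 0.40. Icam2, which DC-SIGN lectins can bind, differed by -1.38 ± 0.36 at day 1, and Jun by -0.65 ± 0.23. Ccl21a and Icam2 were each above the background limit on 2 arrays, and Jun on all 12. The other CCR7 ligand gene Ccl19, the XCR1 ligand gene Xcl1 and the FLT3 ligand gene Flt3l were above the background limit on no array. MHC class II genes, which dendritic cells carry in abundance, were lower in 8 of 8 cases on each day (medians -1.26, -0.69 and -0.69), with H2-Ab1 at -2.34 ± 0.63 and its regulator Ciita at -1.05 ± 0.22 at day 1. H2-Ab1 was above the background limit on 11 arrays and Ciita on none. The SD of H2-Ab1 was 1.69 at day 1 and 0.50 in intact samples, and that of Ciita 0.24 and 0.33. The mean over these MHC genes on an array was 6.85 to 7.52 in intact samples and 4.95 to 6.40 at day 1. None of the gene lists was fitted again without day 1 replicate 2. In limma 0 genes of these 6 lists passed on any of the 3 days. At an unadjusted p under 0.05, 2, 2, 6, 2, 5 and 6 of them were lower at day 1, in the order given, 0, 1, 3, 0, 3 and 5 at day 3 and 1, 1, 2, 2, 3 and 1 at day 7, where 5.9, 2.5 and 3.74% of all probe sets were lower on the 3 days. On the higher side were 0, 1 and 2 maturation genes and 0 genes of the other lists, beside 3.04, 1.96 and 1.95% of all probe sets.

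Markers of other cells were examined beside the members, and few of them passed the test. Those of endothelium were lower in 10 of 10 cases on each day (medians -1.46, -1.18 and -1.38), those of fibroblasts and smooth muscle in 11 of 11 (medians -1.28, -1.20 and -1.05) and those of epithelium in 12 of 13 (medians -1.25, -0.68 and -1.27). The mean over the endothelial markers on an array was 5.69 to 6.58 in intact samples and 3.69 to 5.57 on day 1. T and NK cell markers were lower in 11, 10 and 10 of 15 cases (medians -0.26, -0.17 and -0.27), with array means of 3.66 to 3.82 in intact samples and 3.00 to 3.47 after resection. Cd3d, Cd3e, Cd3g, Cd4 and Cd8a were above the background limit on no array. In the same list Cd2 was above it on 11 arrays, Il7r on 9 and Gzma on 2. Gzma differed from intact by -2.39 ± 0.44 and Cd2 by -1.29 ± 0.32 at day 1, and Il7r by 1.18 ± 0.35 at day 3. All 8 B cell markers were above the limit on no array. They were lower in 7, 6 and 8 cases (medians -0.15, -0.11 and -0.11). Of the markers of monocytes and interstitial macrophages, 10, 8 and 8 of 13 were lower (medians -0.24, -0.07 and -0.37), and Ly6c2 differed by -1.92 ± 0.44 at day 1. Neutrophil markers were higher in 11, 9 and 11 of 12 cases (medians 1.03, 1.00 and 1.27). Eosinophil markers were higher in 2, 4 and 5 of 7 cases (medians -0.30, 0.19 and 0.77), and alveolar macrophage markers in 6, 2 and 5 of 11 (medians 0.00493, -0.25 and -0.02). In limma 1 epithelial marker (Sftpd, at day 7) and 1 fibroblast marker (Col3a1, at days 3 and 7) passed, and 0 of the other lists. At an unadjusted p under 0.05, 8, 6 and 7 endothelial markers were lower on days 1, 3 and 7, as were 10, 5 and 9 epithelial markers, 8, 5 and 7 of fibroblasts and smooth muscle, 5, 6 and 4 of T and NK cells, 2, 2 and 1 of B cells, 3, 4 and 4 of monocytes and interstitial macrophages, 3, 0 and 0 of alveolar macrophages and 0, 2 and 0 of eosinophils, beside 5.9, 2.5 and 3.74% of all probe sets. On the higher side were 8, 8 and 9 neutrophil markers, 1, 2 and 4 eosinophil markers, 1, 0 and 1 epithelial markers and 0, 1 and 0 T and NK cell markers, beside 3.04, 1.96 and 1.95% of all probe sets. The part of these cells in the values of the dendritic cell genes was not tested.

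Over the 12 arrays Cd209a had r of 0.86 with the mean of the MHC class II genes, 0.83 with that of the maturation genes, 0.77 with that of the T and NK markers and 0.63 with that of the endothelial markers. Its r was 0.51 with the genes of its own type 2 class and 0.66 with the further type 1 genes. Ccr7 had r of 0.93 with the mean of the maturation genes and of the further type 1 genes. With the latter, the type 1 markers Xcr1 and Itgae had r of 0.16 and 0.20, Batf3 0.63, and the conventional dendritic cell gene Zbtb46 0.11. Xcr1 had its highest r, 0.85, with the plasmacytoid genes, and Fscn1 with the T and NK markers, at 0.76. Batf3 had its highest, 0.81, with the alveolar macrophage markers. The separation of exon from intron controls had r of 0.58 to 0.64 with Batf3, Ccr7, Cd209a, Fscn1 and Itgae, and its part in their values was not tested. Ccr7 was lowest, at 4.14, on day 1 replicate 2, the array of weakest separation, and no r was formed without that array.

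**Figure D4:**
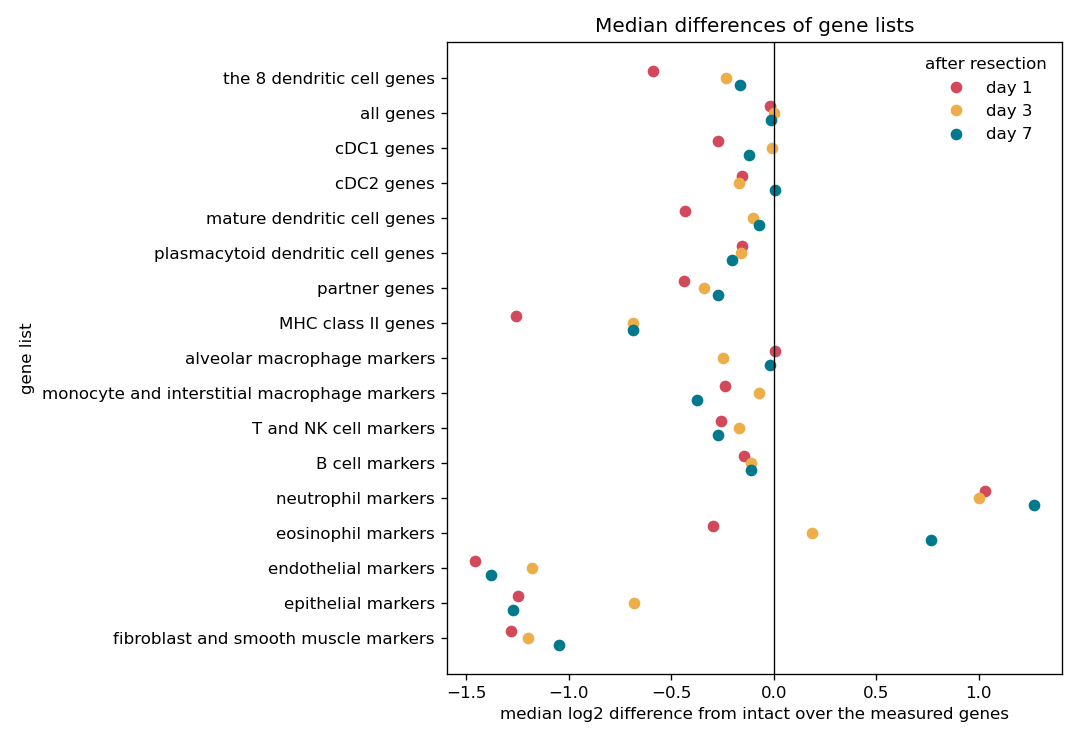
Median log2 difference from intact (horizontal axis) over the measured genes of each list (vertical axis) at day 1, day 3 and day 7. The 8 dendritic cell genes lay at -0.59, -0.23 and -0.17, between the endothelial markers, at -1.46 to -1.18, and all genes, near 0.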

How the data were processed

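Gene expression was measured with Clariom S mouse arrays in 12 samples, 4 groups of 3. The authors deposited 1 normalized log2 signal for each probe set and array. The submitters' processing notes name RMA and the Transcriptome Analysis Console, while versions and genome build are not given in the sources used here. The log2 scale was inferred from the range, whose upper end is 12.79. They were used as deposited. Of 28846 probe sets, 6640 controls were left out and 22206 tested; 19572 of these had 1 gene symbol in the platform annotation, 0 had several and 2634 had none. The probe set of highest mean stood for a gene.

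limma 3.58.1 (R 4.3.3) fitted 1 model over all 12 arrays with group as the only term, with two-sided tests, default moderation and Benjamini-Hochberg adjustment over all 22206 probe sets at 0.05. An exact permutation test of 3 against 3 arrays cannot go below 0.1. The procedure was tested on simulated independent normal values with the same spread on every array. Of 50 probe sets changed 2-fold, 50% were recovered at day 1, 60% at day 3 and 52% at day 7. Of 50 changed 4-fold, 96, 94 and 98% were. The simulation held no weakly separating arrays, so it does not show the recovery in these data. Replicate numbers did not pair the arrays.

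The members, the 15 gene lists (194 entries, some shared between lists), the 5 motifs and the rule for naming genes were chosen with earlier results of these data known. The 8 members were all described. Of each list, up to 3 genes of smallest p per day were eligible to be named. Other genes named, such as Sirpa, Itgam, Siglech, Clec4a4, Mgl2, Flt3l, Xcl1, Ccl19 and the T cell genes, were singled out after their values were seen. The 3 to 6 genes most alike by Pearson's r were taken among genes of mean log2 5 or above. The number of arrays limits the precision.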

Additional observations from a re-analysis of the deposited data

How the results depend on the processing

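The count of dendritic cell genes called was 0 in limma in all 7 comparisons and the F test under each alternative run except array weights. These gave 1 gene at day 3 against intact (Cd209a) and 2 with the resected samples pooled (Cd209a and Xcr1). The alternatives were other moderation, a filter on dim probe sets, quantile normalization, median centring, array weights, a replicate block, mean probe sets, a fit of the 2 groups of a comparison alone (not for the pooled comparison or the F test), each array left out, the 3 weakly separating arrays left out, a threshold of 0.1 and, chosen after seeing the data, the labelling control as a block. Mean probe sets could not change the differences of the members, since each had 1 probe set. The cause of the calls with array weights was not tested. Array weights ran from 0.188 for day 1 replicate 2 to 2.32 for intact replicate 2. They raised the probe sets called from 0 to 43 at day 1, from 1 to 298 at day 3, from 4 to 402 at day 7, from 10 to 575 pooled and from 0 to 7 for day 7 against day 3. Without the 3 weakly separating arrays the counts were 71, 252, 280, 395 and 4, and 6 for day 3 against day 1. The filter on dim probe sets, a highest group mean of 4 or above, left 8972 probe sets and 2 of the 8 genes (Cd209a and Ccr7), so no median was formed under it.

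Replicate numbers are shared between groups in the labels. Same-numbered arrays deviated from their group means with r from -0.241 to 0.258, over 0.1 in 3 of 18 pairs, so the numbers were not taken to pair the arrays. With the replicate block 0 of the 8 genes were called in each comparison, and the probe sets called went from 4 to 8 at day 7, from 1 to 0 at day 3 and stayed at 10 pooled.

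The median of the 8 genes at day 1, -0.59, was -0.334 with array weights and -0.266 without the 3 weakly separating arrays, and it ranged from -0.646 to -0.266 with 1 array left out, the latter without day 1 replicate 2. The differences that changed sign were not called by limma as deposited. With array weights, Cd209a for day 3 against day 1 was -0.119, Flt3 was 0.0342 for day 1 against intact and -0.0119 for day 3 against day 1, and Zbtb46 for day 3 against intact was 0.0311. With median centring Flt3 for day 1 against intact was 0.026 and Xcr1 for day 7 against day 3 was 0.036. Without the 3 weakly separating arrays Ccr7 for day 7 against day 3 was 0.178, Cd209a for day 3 against day 1 -0.243, Flt3 for day 1 against intact 0.0432 and for day 3 against day 1 -0.0251, Xcr1 for day 7 against day 3 0.0496 and Zbtb46 pooled -0.00994. With the labelling control as a block Ccr7 was 0.0687 for day 3 against intact, 0.0858 for day 7 against intact and 0.017 for day 7 against day 3, Itgae for day 7 against day 1 was 0.00777, Xcr1 for day 7 against day 3 was 0.102 and Zbtb46 pooled was -0.00447.

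With 1 array left out, the ranges that crossed 0 at day 1 against intact were -0.0632 to 0.0903 for Flt3 and -0.203 to 0.136 for Zbtb46. At day 3 against intact they were -0.234 to 0.0876 for Ccr7, -0.0279 to 0.126 for Flt3 and -0.151 to 0.0554 for Zbtb46. At day 7 against intact they were -0.133 to 0.207 for Batf3, -0.548 to 0.198 for Ccr7 and -0.0232 to 0.183 for Zbtb46. Pooled they were -0.0931 to 0.0604 for Flt3 and -0.115 to 0.0917 for Zbtb46. For day 3 against day 1 they were -0.0639 to 0.35 for Batf3, -0.116 to 0.346 for Cd209a, -0.0105 to 0.0942 for Flt3, -0.224 to 0.056 for Itgae and -0.169 to 0.17 for Zbtb46. For day 7 against day 3 they were -0.506 to 0.24 for Ccr7, -0.111 to 0.767 for Fscn1 and -0.195 to 0.124 for Xcr1. For day 7 against day 1 they were -0.377 to 0.501 for Fscn1, -0.153 to 0.127 for Itgae and -0.0416 to 0.298 for Zbtb46. Signal over background limits these results, since 7 of the 8 genes lay under the 95th percentile of the intron controls.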
